A study of Mus musculus with 5 samples.

Results

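Cytochrome P450 enzymes of families 1 to 4 were measured as 31 genes among the 19198 genes of an RNA sequencing count table from mouse small intestine. The members were all rows whose symbol is Cyp followed by 1, 2, 3 or 4, a single letter and a number, with pseudogene names left out. This rule uses no measured value, but it was set with earlier results of these data known. They fell into 13 subfamilies, of which Cyp2c held 7 genes, Cyp4f 6, Cyp3a 5, Cyp2j 3 and Cyp2d 2, while 8 subfamilies had 1 gene each. The Cre-positive group was 2 mice carrying the Math1Cre*PR transgene with both copies of the M4 muscarinic receptor gene floxed (mAChR4 fl/fl; gene symbol Chrm4). The Cre-negative group was 3 mAChR4 fl/fl littermates without the transgene. Every mouse of both groups received RU486 by gavage at 10 mg/kg a day over 4 days, and 1 library was made from the small intestine of each mouse. RU486 switches on Cre*PR, a recombinase joined to the hormone-binding part of the progesterone receptor, and the Math1 (Atoh1) regulatory sequence that drives it is known from precursors of the secretory cells of the gut. The design therefore has no mouse without RU486 and no Cre-positive mouse with unfloxed Chrm4, and effects of the transgene and of the deletion cannot be told apart. The labels give no age.

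P450 enzymes are membrane-bound haem proteins of the endoplasmic reticulum that insert an oxygen atom into their substrates with electrons from P450 reductase (Por). Enzymes of families 1 to 3 are known for the oxidation of drugs, plant compounds, steroids and arachidonic acid, and those of family 4 for hydroxylating fatty acids and leukotrienes at the end of the chain. In the small intestine they are known mainly from absorptive enterocytes of the villus. Several are induced through ligand-activated receptors, Cyp3a genes through Pxr (Nr1i2), Cyp2b genes through Car (Nr1i3), Cyp1 genes through Ahr and some Cyp4 genes through Ppara. RU486, the drug all mice were given, is itself a known ligand of Pxr. Related P450 genes often lie in clusters and some are near-identical. The subfamilies with several members lie here on 1 chromosome each, Cyp3a on chromosome 5, Cyp2c on chromosome 19, Cyp4f on chromosome 17, Cyp2j on chromosome 4 and Cyp2d on chromosome 15.

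The sequences upstream of some of these genes are shown first, mainly for genes whose level varied most and least among the 5 mice. Whether the sequences bear on that variation was not tested. RefSeq promoters on GRCm38.p6 were matched for 27 of the 31 members, and the 200 bases before the RefSeq start were searched on both strands. Gene positions given further below are those of GENCODE, whose starts can differ. The Cyp2s1 window lies wholly inside the GENCODE gene. Those of Cyp3a11, Cyp2b10 and Cyp4f13 are among the windows that reach into the GENCODE gene. The core promoter motif TATAAA was searched, together with the nuclear receptor half-sites AGGTCA and AGTTCA. Motifs named for the gut factors HNF4, HNF1 and GATA factors were CAAAGTC for the first, GTTAAT for the second and GATAAG for the last, and TNGCGTG stood for the core of the Ahr-Arnt element. Each motif was counted on its own, so that overlapping matches would both count. Capitals below mark matches on either strand, and each line is written 5′ to 3′ along the gene. The genes printed, and the CAAAGTC motif, were chosen after values and promoters had been seen. The first set had the largest ratios of highest to lowest mouse among genes at 10 CPM or more (CPM, read counts scaled to a common library size), namely Cyp2c66, Cyp2b10 and Cyp3a11, and is shown with Cyp2c65, the gene next to Cyp2c66:
Cyp2c66 (chr19:39113698-39113897, plus strand): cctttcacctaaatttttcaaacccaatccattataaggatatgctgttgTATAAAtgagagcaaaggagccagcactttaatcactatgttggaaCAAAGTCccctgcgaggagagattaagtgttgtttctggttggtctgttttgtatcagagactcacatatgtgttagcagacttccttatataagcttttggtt
Cyp2c65 (chr19:39060806-39061005, plus strand): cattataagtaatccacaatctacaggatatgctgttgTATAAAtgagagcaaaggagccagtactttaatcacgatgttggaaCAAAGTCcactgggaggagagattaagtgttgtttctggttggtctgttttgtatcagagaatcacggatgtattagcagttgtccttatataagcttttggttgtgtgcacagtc
Cyp3a11 (chr5:145879855-145880054, minus strand): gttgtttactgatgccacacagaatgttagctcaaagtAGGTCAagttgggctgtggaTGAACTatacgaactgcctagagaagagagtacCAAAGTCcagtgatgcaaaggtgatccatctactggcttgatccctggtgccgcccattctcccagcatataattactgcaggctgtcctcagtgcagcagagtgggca
Cyp2b10 (chr7:25897458-25897657, plus strand): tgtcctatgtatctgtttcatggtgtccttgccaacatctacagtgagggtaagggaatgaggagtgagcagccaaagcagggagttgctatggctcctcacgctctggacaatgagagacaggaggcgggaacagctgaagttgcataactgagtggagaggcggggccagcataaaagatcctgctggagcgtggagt

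The second set had the smallest ratios of highest to lowest mouse, Cyp4f40 (the first of its 2 RefSeq starts), Cyp2s1, Cyp4f13 and Cyp2j6:
Cyp4f40 (chr17:32658686-32658885, plus strand): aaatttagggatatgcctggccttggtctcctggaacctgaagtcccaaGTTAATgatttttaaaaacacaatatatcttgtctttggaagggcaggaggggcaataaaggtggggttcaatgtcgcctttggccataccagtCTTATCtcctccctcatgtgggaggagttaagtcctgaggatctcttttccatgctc
Cyp2s1 (chr7:25816526-25816725, minus strand): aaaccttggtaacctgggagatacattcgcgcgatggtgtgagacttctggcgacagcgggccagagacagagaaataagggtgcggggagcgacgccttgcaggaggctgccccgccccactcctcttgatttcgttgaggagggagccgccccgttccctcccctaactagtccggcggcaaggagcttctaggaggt
Cyp4f13 (chr17:32947362-32947561, minus strand): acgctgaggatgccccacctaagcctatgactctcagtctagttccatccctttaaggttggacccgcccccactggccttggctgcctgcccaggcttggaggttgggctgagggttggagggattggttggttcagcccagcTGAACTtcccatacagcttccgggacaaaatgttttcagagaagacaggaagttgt
Cyp2j6 (chr4:96553652-96553851, minus strand): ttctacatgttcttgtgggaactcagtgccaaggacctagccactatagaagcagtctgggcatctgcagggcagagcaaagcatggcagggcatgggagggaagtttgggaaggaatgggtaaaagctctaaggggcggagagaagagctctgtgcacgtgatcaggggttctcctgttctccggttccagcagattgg

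The last pair, Cyp3a25 and Cyp3a59, shows how alike neighbouring members can be:
Cyp3a25 (chr5:146009618-146009817, minus strand): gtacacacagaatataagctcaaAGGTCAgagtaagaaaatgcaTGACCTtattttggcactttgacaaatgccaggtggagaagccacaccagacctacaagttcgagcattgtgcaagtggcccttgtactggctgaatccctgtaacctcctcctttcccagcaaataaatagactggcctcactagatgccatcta
Cyp3a59 (chr5:146079058-146079257, plus strand): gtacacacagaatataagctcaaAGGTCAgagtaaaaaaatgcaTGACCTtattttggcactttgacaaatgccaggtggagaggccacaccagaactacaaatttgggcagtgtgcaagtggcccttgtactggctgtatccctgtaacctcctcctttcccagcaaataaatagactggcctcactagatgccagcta

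The CAAAGTC core stood upstream of 6 members, Cyp3a11, Cyp2c29, Cyp2c40, Cyp2c65, Cyp2c66 and Cyp2c68, against 3.03% of all 32851 RefSeq promoters searched the same way. It began 109 bases before the RefSeq start of Cyp3a11 and 116 and 104 bases before those of Cyp2c65 and Cyp2c66. The Cyp3a11 match lies within the first bases of the GENCODE gene. AGGTCA stood upstream of 5 members (11.4% of all promoters), with the Cyp3a25 and Cyp3a59 windows each holding it once on each strand. TATAAA was found in 7 members (9.96%), AGTTCA in 4 (9.28%), GTTAAT in 4 (5.06%), GATAAG in 5 (5.13%) and TNGCGTG in 1 (3.3%). Base composition differed as well, from 31% G and C in the Cyp2c40 and Cyp2c68 windows to 61.5% in that of Cyp2r1, against a mean of 53.9% over all windows. The aligned Cyp2c65 and Cyp2c66 windows were identical at 164 of 185 bases and those of Cyp2c40 and Cyp2c68 at 158 of 167. Those of Cyp3a25 and Cyp3a59 were identical at 191 of 200, and those of Cyp3a11 and Cyp3a13 at 106 of 175. Matches in windows this alike are not independent of each other. A match is a description of these letters and not evidence of binding.

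Library totals ran from 4681119 to 6618204 estimated counts, and a count of 0 allows a level of up to 0.466 to 0.719 CPM in a library (3 counts, counting error only). Levels are CPM after TMM scaling, which corrects each library total for composition. The targeted gene Chrm4 had 2.52 and 0.777 CPM in Cre-positive mice, against 0.958, 3.71 and 0.652 CPM in Cre-negative mice (log2 fold change -0.14 ± 0.91 SE, edgeR adjusted p = 0.989), so its level in whole tissue did not separate the groups. It rested on 13 and 5 counts in Cre-positive mice, against 4, 20 and 4 in Cre-negative mice. Counts this low cannot show whether the gene was deleted. The 19 enterocyte markers of the list used (Vil1, Alpi, Sis and others) were all measured. Of 13 hepatocyte markers 2 were among the genes analysed, and the other 11, Alb and Ttr among them, were not analysed here. In whole tissue, fewer cells of a type and less RNA per cell cannot be told apart. The labels do not say whether the mice were housed or processed together, and p-values measure the spread between these mice only.

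The Cre-positive and Cre-negative mice overlapped in each of the 27 P450 genes that passed the filter on low counts, and no gene, subfamily or summed level passed the test. The summed level of all members was 920 and 3400 CPM in Cre-positive mice, against 2677, 1417 and 3725 CPM in Cre-negative mice. Cre-positive mouse 1 was the lowest of the 5 and Cre-positive mouse 2 the second highest, so the 2 Cre-positive mice lay on either side of the Cre-negative mean. The group means were 2160 ± 1754 CPM (SD, n = 2) in Cre-positive and 2607 ± 1156 CPM (SD, n = 3) in Cre-negative mice, a ratio of 0.829. The exact permutation p, two-sided over the 10 splits of the mice, was 0.7, where the smallest value the design allows is 0.1. Cyp3a genes gave 39.5% of the summed level over all mice, Cyp4f genes 27.4%, Cyp4v3 12.5% and Cyp2c genes 7.15%. The mice with high totals weigh most in these shares. In the 2 mice with the lowest totals Cyp4f genes were the larger group, with 398 CPM against 301 CPM of Cyp3a in Cre-positive mouse 1 and 557 CPM against 483 CPM in Cre-negative mouse 2.

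**Figure D1:**
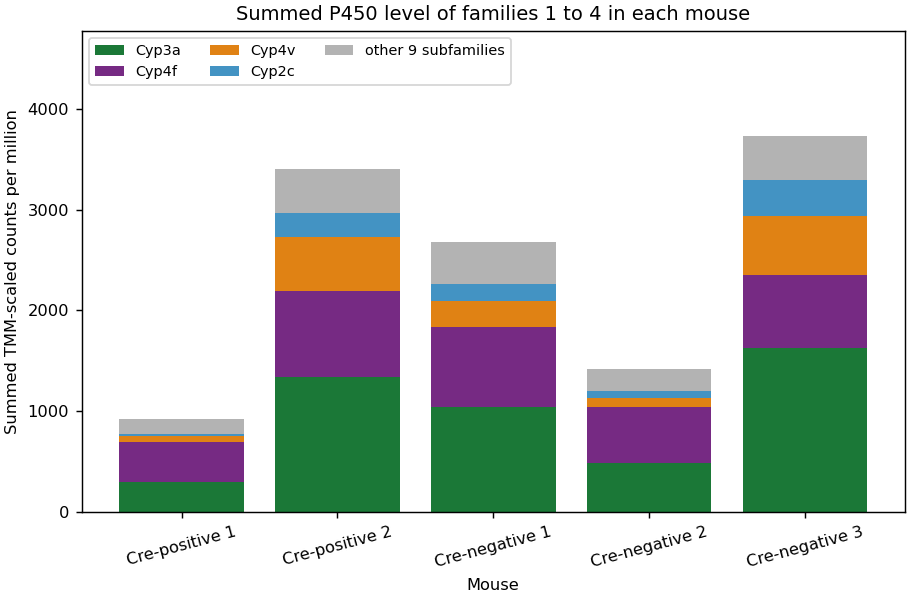
Summed level of the 31 P450 genes in each mouse in TMM-scaled CPM, stacked by subfamily, with 2 Cre-positive mice on the left and 3 Cre-negative mice on the right. The bars reach 920 and 3400 CPM in the Cre-positive mice and 2677, 1417 and 3725 CPM in the Cre-negative mice, so that each group holds a low and a high mouse.

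In the Cyp3a subfamily, which oxidises a wide range of drugs and steroids, the level of 1 gene was steady and that of another varied over 73.0-fold between the highest and the lowest mouse. Cyp3a13 (chr5:137892932-137921619), a Cyp3a enzyme known from the gut as well as the liver, had 249.2 and 629.9 CPM in Cre-positive mice, against 558.3, 385.8 and 694.5 CPM in Cre-negative mice. Its highest mouse was 2.79 times its lowest, and its log2 fold change was -0.31 ± 0.44 SE with a 95% interval of -1.35 to 0.72. Cyp3a11 (chr5:145854426-145879964), the main drug-metabolising Cyp3a enzyme of mouse liver and the classical Pxr target, had 9.87 and 552.5 CPM in Cre-positive mice, against 367.6, 66.3 and 720.8 CPM in Cre-negative mice. It was low in Cre-positive mouse 1 and Cre-negative mouse 2 and high in the other three, a pattern that crosses the genotypes. Between the 2 Cre-positive mice it differed 56.0-fold (95% interval 42.5 to 75.3, counting error only) and among the Cre-negative mice 10.9-fold. The log2 fold change between the groups was -0.45 ± 1.52 SE, with a 95% interval of -4.18 to 3.28.

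Cyp3a25 (chr5:145977194-146009618), another abundant member of this cluster, followed the same 2 low mice. It had 40.1 and 149.2 CPM in Cre-positive mice, against 114.3, 25.6 and 200.9 CPM in Cre-negative mice, the lowest value being that of Cre-negative mouse 2. Cyp3a59 ran from 0.556 to 6.84 CPM and Cyp3a44, known from female mouse liver, from 0.489 to 5.03 CPM, so both rested on few counts. The 4 Y-linked genes of the list used summed to between 273 and 328 CPM in each of the 5 mice, so all carried a Y chromosome. Cyp3a44 had 0.581 and 1.40 CPM in Cre-positive mice, against 5.03, 4.82 and 0.489 CPM in Cre-negative mice (log2 fold change -1.72 ± 0.99 SE, edgeR unadjusted p = 0.124). In contrast to Cyp3a11, its lowest mouse was Cre-negative mouse 3 and Cre-negative mouse 2 was high.

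The make-up of the Cyp3a transcripts differed more among mice than between groups. Cyp3a11 made up 3.28% (95% Wilson interval 2.50 to 4.29) and 41.3% (40.3 to 42.4) of Cyp3a counts in Cre-positive mice. In Cre-negative mice it was 35.1% (33.7 to 36.5), 13.7% (12.5 to 15.1) and 44.4% (43.4 to 45.4). The share of Cyp3a13 was 82.8% and 47.1% in Cre-positive mice, against 53.3%, 79.9% and 42.8% in Cre-negative mice. It exceeded that of Cyp3a11 in every mouse but Cre-negative mouse 3. Shares of one total are tied to each other. In CPM Cyp3a13 was itself lowest in the 2 mice with low Cyp3a11. These are shares of counts, not corrected for gene length, and the intervals cover counting error only.

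Cyp2b10 and the Cyp2d genes, which also act on drugs and steroids, had their lowest level in the same mouse as Cyp3a11. Cyp2b10 (chr7:25897620-25926624), the classical Car target, had 0.774 and 83.9 CPM in Cre-positive mice, against 25.9, 3.71 and 125.4 CPM in Cre-negative mice. The lowest of these values rested on 4 counts, and the ratio between the 2 Cre-positive mice was 108 with a wide interval of 42.1 to 399. Its highest mouse was 162 times its lowest. Cyp2d26 (chr15:82790101-82794294) had 3.68 and 72.7 CPM in Cre-positive mice, against 59.9, 9.27 and 58.5 CPM in Cre-negative mice. Cyp2d22 (chr15:82370527-82380260) varied less, with 8.13 and 31.6 CPM in Cre-positive mice, against 35.7, 16.5 and 31.8 CPM in Cre-negative mice. In all 3 genes Cre-positive mouse 1 was lowest and Cre-negative mouse 2 second lowest, and Cre-positive mouse 2 stood within or above the range of the Cre-negative mice.

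The Cyp2c subfamily, whose members are known for making epoxy and hydroxy derivatives of arachidonic acid, summed to 21.9 and 239 CPM in Cre-positive mice, against 176, 76.0 and 356 CPM in Cre-negative mice. Cyp2c65 (chr19:39061015-39093944), a form known from the gastrointestinal tract, was the most abundant, with 12.6 and 142.4 CPM in Cre-positive mice, against 89.4, 55.0 and 224.7 CPM in Cre-negative mice. Cyp2c66 (chr19:39113898-39187072), its neighbour, had 0.194 and 21.1 CPM in Cre-positive mice, against 12.0, 3.15 and 45.5 CPM in Cre-negative mice. Both were lowest in Cre-positive mouse 1 and highest in Cre-negative mouse 3, and the lowest Cyp2c66 value was a single count, so the ratio of 109 between the 2 Cre-positive mice had an interval of 19.3 to 4346. Cyp2c68 (chr19:39688834-39741054) had 2.52 and 33.3 CPM in Cre-positive mice, against 18.9, 6.67 and 48.6 CPM in Cre-negative mice. Cyp2c55 (chr19:39007019-39042693), known from the large intestine, had 6.39 and 39.2 CPM in Cre-positive mice, against 50.8, 9.82 and 32.1 CPM in Cre-negative mice. Its order at the top differed from that of Cyp2c65, with Cre-negative mouse 1 highest. Cyp2c29, an epoxygenase best known from liver, was at 0 in Cre-positive mouse 1 and Cre-negative mouse 2 and did not exceed 3.59 CPM elsewhere. Cyp2c23 and Cyp2c40 averaged 0.857 and 0.346 CPM over all mice and did not pass the filter on low counts.

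Cyp2s1 and Cyp2j6 were steadier. Cyp2s1 (chr7:25802475-25816913), an epithelial P450 known outside the liver, had 47.4 and 59.2 CPM in Cre-positive mice, against 79.6, 59.9 and 55.2 CPM in Cre-negative mice. Cyp2j6 (chr4:96516138-96553661), the most abundant member of a subfamily of arachidonic acid epoxygenases, had 52.4 and 85.2 CPM in Cre-positive mice, against 107.6, 50.8 and 64.2 CPM in Cre-negative mice. Their highest mice were 1.68 and 2.12 times their lowest, and Cre-negative mouse 1 was highest in both. Cyp2u1 (chr3:131288441-131303227) varied more, 7.82-fold from lowest to highest mouse. This gene, which hydroxylates long-chain fatty acids, had 3.10 and 17.3 CPM in Cre-positive mice, against 24.2, 9.82 and 16.5 CPM in Cre-negative mice.

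Several family 2 members were near the limit of measurement. Cyp2j9 had 0.581 and 1.55 CPM in Cre-positive mice, against 7.91, 1.48 and 2.44 CPM in Cre-negative mice, and gave the smallest unadjusted p of any member (edgeR, 0.079, log2 fold change -1.79 ± 0.88 SE, adjusted p = 0.977). The groups overlapped, since Cre-positive mouse 2 lay above Cre-negative mouse 2. Cyp2j11 ran from 0 in Cre-negative mouse 3 to 5.56 CPM in Cre-negative mouse 2. Cyp2e1, the ethanol-oxidising P450, had 3.68 and 1.09 CPM in Cre-positive mice, against 2.64, 0.741 and 0.815 CPM in Cre-negative mice. Cyp2r1, which hydroxylates vitamin D at carbon 25 in the liver, had 2.90 and 1.40 CPM in Cre-positive mice, against 1.20, 2.41 and 0.815 CPM in Cre-negative mice. Both Cyp2e1 and Cyp2r1 were highest in Cre-positive mouse 1, the mouse in which most other members were lowest.

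Family 4 held the gene with the highest level per length of its merged exons. Cyp4f14 (chr17:32905070-32917342), which hydroxylates leukotriene B4 and vitamin E at the end of the side chain, had 244.4 and 614.6 CPM in Cre-positive mice, against 475.7, 374.3 and 503.4 CPM in Cre-negative mice. Cre-positive mouse 2 was the highest of the 5 and Cre-positive mouse 1 the lowest, and the log2 fold change was -0.07 ± 0.39 SE with a 95% interval of -1.003 to 0.86. Cyp4f16 (chr17:32536558-32551798) had 94.8 and 159.6 CPM in Cre-positive mice, against 241.1, 96.9 and 145.8 CPM in Cre-negative mice. Cyp4f40 (chr17:32658900-32676914) had 41.4 and 53.2 CPM in Cre-positive mice, against 41.0, 64.7 and 45.6 CPM in Cre-negative mice, the narrowest spread of any member at 1.58 times from lowest to highest. With Cyp2j11 it was 1 of the 2 members tested in which Cre-negative mouse 2 was highest. Cyp4f13 (chr17:32924688-32947402) had 16.1 and 29.1 CPM in Cre-positive mice, against 28.8, 19.1 and 30.0 CPM in Cre-negative mice. Cyp4f17 and Cyp4f37 averaged 1.52 and 0.565 CPM and did not pass the filter on low counts. Cyp4f17 had 0.968 and 0.777 CPM in Cre-positive mice, against 3.12, 1.11 and 1.63 CPM in Cre-negative mice. Cyp4f37 had 0 and 0.155 CPM in Cre-positive mice, against 1.44, 0.741 and 0.489 CPM in Cre-negative mice. In both, the 2 Cre-positive mice lay below all 3 Cre-negative mice, on at most 13 counts in a library. The same held in 10.2% of all genes tested.

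Cyp4v3 (chr8:45304944-45333216), the mouse counterpart of the human fatty acid hydroxylase gene CYP4V2, differed 10.7-fold between its highest and lowest mouse. It had 55.0 and 531.6 CPM in Cre-positive mice, against 253.3, 87.1 and 587.5 CPM in Cre-negative mice. Cyp4b1 (chr4:115624725-115647723), a fatty acid and toxin-activating P450 of epithelia, had 8.13 and 72.7 CPM in Cre-positive mice, against 57.3, 46.0 and 70.1 CPM in Cre-negative mice. In Cyp4b1 the Cre-negative mice lay within 1.52 times of each other, and Cre-positive mouse 1 alone stood 8.95-fold below Cre-positive mouse 2. Cyp1b1 (chr17:79701537-79715061), an Ahr target known from stromal cells, was the single family 1 gene in the table used. Its level was 12.6 and 4.66 CPM in Cre-positive mice, against 7.91, 8.15 and 6.19 CPM in Cre-negative mice, and Cre-positive mouse 1 was its highest mouse.

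**Figure D2:**
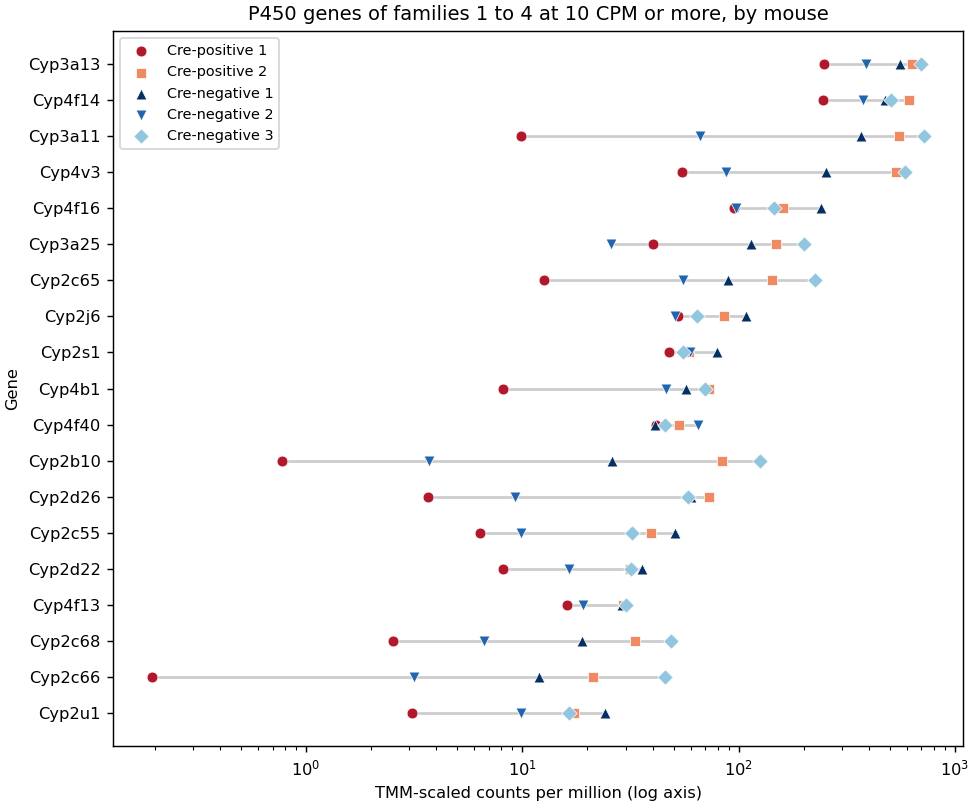
TMM-scaled CPM of the 19 P450 genes with a mean of 10 CPM or more in each of 2 Cre-positive and 3 Cre-negative mice, on a log axis, ordered by mean level. Grey lines join the lowest and highest mouse, from 1.58-fold apart in Cyp4f40 to 235-fold apart in Cyp2c66, and Cre-positive mouse 1 is the lowest in 16 of the 19.

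Divided by the exon length of GENCODE release 21 on GRCm38, with the exons of all transcripts of a gene merged, the order of the levels changed. The merged length was 5093 bases for Cyp3a11 and 2083 bases for Cyp3a25. A shorter transcript length would raise the value of a gene such as Cyp3a11, so the order rests on this choice. Cyp4f14 stood at 183 ± 57.8 CPM per kilobase and Cyp3a13 at 170 ± 61.9 (SD over all 5 mice), a difference within their spread. They were followed by Cyp4v3 at 79.5 ± 64.8, Cyp3a11 at 67.4 ± 60.1, Cyp2c65 at 54.4 ± 42.6, Cyp3a25 at 50.9 ± 35.4 and Cyp4f16 at 48.1 ± 19.4, which overlapped each other. Of the 31 members, 19 averaged at least 10 CPM, 9 lay between 1 and 10 CPM and 3 below 1 CPM.

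The test of each gene asked whether the Cre-positive and Cre-negative mice differed beyond the spread among mice. By edgeR's quasi-likelihood test, with Benjamini-Hochberg adjustment over the 14352 genes that passed the filter on low counts, 0 of 27 members tested were called higher and 0 lower at an adjusted p under 0.05, against 0% of all genes in either direction. At an unadjusted p under 0.05 the count of members was also 0, against 3.38% of all genes (1.6% higher and 1.78% lower in Cre-positive mice). DESeq2 and limma-voom called 0 members too, while DESeq2 called 0.0573% of all genes higher and 0.0313% lower. Among members tested, the 2 groups were apart in 0 of 27, against 18% of all genes (7.89% higher and 10.2% lower in Cre-positive mice). Adjusted p-values of the members ran from 0.977 to 0.994 in edgeR.

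The fold changes of the members were small beside their errors and mostly below 0. The log2 fold change was negative in 23 of 27 members and positive in 4, Cyp1b1, Cyp2e1, Cyp2j11 and Cyp2r1, and its median was -0.29, against a median of -0.04 and 7825 negative values among all 14352 genes. In 17 of the 19 members at 10 CPM or more the 2 Cre-positive mice lay on either side of the Cre-negative mean. The sign depended on single mice. Without Cre-positive mouse 1, 20 of 28 members were positive with a median of 0.23. Without Cre-positive mouse 2, 25 of 28 were negative with a median of -1.60. Without Cre-negative mouse 3 the members tested were 12 negative and 12 positive with a median of 0.01. These mice were doubted after the data had been seen, and no member was called in any of these fits.

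**Figure D3:**
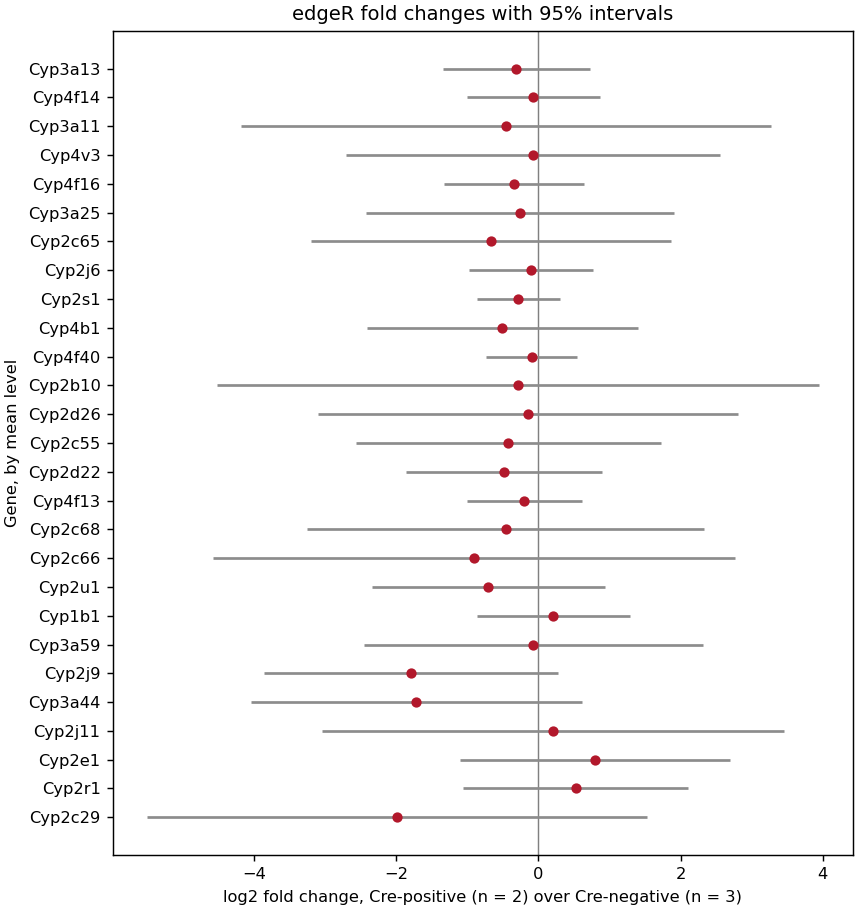
edgeR log2 fold change, Cre-positive (n = 2) over Cre-negative (n = 3), of the 27 P450 genes tested, with 95% intervals, ordered by mean level from the top. Every interval spans 0, and the intervals run from narrow (Cyp2s1, -0.86 to 0.30) to wide (Cyp2b10, -4.52 to 3.95).

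The summed counts of each subfamily, which would not depend on any division of reads within it, gave the same picture. With the member rows replaced by subfamily sums, edgeR called 0 of 13 subfamilies, with adjusted p-values from 0.976 to 0.993, against 0% of all features. Exact permutation p-values of the subfamily sums lay between 0.5 and 0.9, and all were 0.9 after adjustment over the 13. Cyp3a genes summed to 819 ± 733 CPM in Cre-positive mice (SD, n = 2), against 1051 ± 570 CPM in Cre-negative mice (SD, n = 3), with a log2 fold change of -0.36 and a 95% interval of -2.02 to 1.30. The Cyp4f sum was narrower, at 628 ± 325 CPM in Cre-positive mice (SD, n = 2), against 692 ± 121 CPM in Cre-negative mice (SD, n = 3), with an interval of -0.999 to 0.72. These intervals leave room for sizeable differences in either direction, most of all in the Cyp2b, Cyp2c and Cyp4v subfamilies.

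What the members shared was the order of the mice. Cre-positive mouse 1 and Cre-negative mouse 2 were the 2 lowest in 20 of 27 members (74.1%), against 13.9% of all genes tested. Among members at 10 CPM or more this held in 17 of 19. Cre-positive mouse 1 alone was lowest in 18 of 27 (66.7%), against 29% of all genes. The highest mouse was Cre-negative mouse 3 in 10 members, Cre-negative mouse 1 in 9 and Cre-positive mouse 2 in 3. Of all 14352 genes tested, these mice were highest in 2438, 3756 and 2088.

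Many markers of absorptive enterocytes and some of position along the gut were also lowest in these 2 mice. The 19 enterocyte markers summed to 24248 and 51427 CPM in Cre-positive mice, against 35621, 27264 and 47543 CPM in Cre-negative mice, and Cre-positive mouse 1 and Cre-negative mouse 2 were the 2 lowest in 15 of the 19 (78.9%). Lct, Fabp1 and Apoa4 stood on both the enterocyte and the proximal list. The 14 pan-epithelial markers were far more even, at 3318 and 4023 CPM in Cre-positive mice, against 3036, 3384 and 3431 CPM in Cre-negative mice. Lactase (Lct), an enzyme of the proximal gut, had 3.48 and 632 CPM in Cre-positive mice, against 259, 15.8 and 881 CPM in Cre-negative mice. The ileal bile acid carrier Slc10a2 was highest in these 2 mice, with 810 and 45.9 CPM in Cre-positive mice, against 218, 376 and 6.52 CPM in Cre-negative mice. Enpp7, on the same distal list, went the other way and was lowest in these 2 mice. It had 9.68 and 715 CPM in Cre-positive mice, against 399, 166 and 536 CPM in Cre-negative mice. The series text names whole small intestine, so these position markers differed among samples of the same description. The 2 position lists as a whole differed from each other. Proximal markers summed to 307 and 1420 CPM in Cre-positive mice, against 744, 249.2 and 1991 CPM in Cre-negative mice, and distal markers to 2909 and 3406 CPM in Cre-positive mice, against 3705, 2345 and 1629 CPM in Cre-negative mice. Cre-negative mouse 2 and Cre-positive mouse 1 were thus the 2 lowest for the proximal list, and Cre-negative mouse 3 was lowest for the distal one. By gene, Cre-positive mouse 1 and Cre-negative mouse 2 were the 2 lowest in 6 of 8 proximal markers tested (75%). This held in 2 of 10 distal markers (20%), against 13.9% of all genes tested. Gata4, listed as proximal, had 0.387 and 39.9 CPM in Cre-positive mice, against 24.7, 19.8 and 47.4 CPM in Cre-negative mice. Its 2 lowest mice were the same. The iron exporter Slc40a1, also on the proximal list, had 234 and 25.2 CPM in Cre-positive mice, against 19.4, 96.7 and 8.63 CPM in Cre-negative mice. Cre-positive mouse 1 and Cre-negative mouse 2 were its 2 highest mice. Goblet markers, by contrast, summed to 5222 and 2312 CPM in Cre-positive mice, against 612, 1028 and 1392 CPM in Cre-negative mice.

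Set against the enterocyte markers, the P450 level varied less. The members' summed CPM equalled 3.79% and 6.61% of the summed enterocyte markers in Cre-positive mice, against 7.51%, 5.20% and 7.84% in Cre-negative mice. The order of the 2 lowest mice remained, with Cre-positive mouse 1 the lowest. With a position score as a covariate (mean log2 CPM of the proximal minus the distal list, added after the data had been seen), 16 of 27 members were negative and 11 positive, with a median log2 fold change of -0.06 and none called. The score was -4.24 and -1.48 in Cre-positive mice, against -2.47, -2.91 and 0.70 in Cre-negative mice. This was the order of the mice in the summed P450 level. The part of enterocyte content and of position in the P450 levels was not tested.

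**Figure D4:**
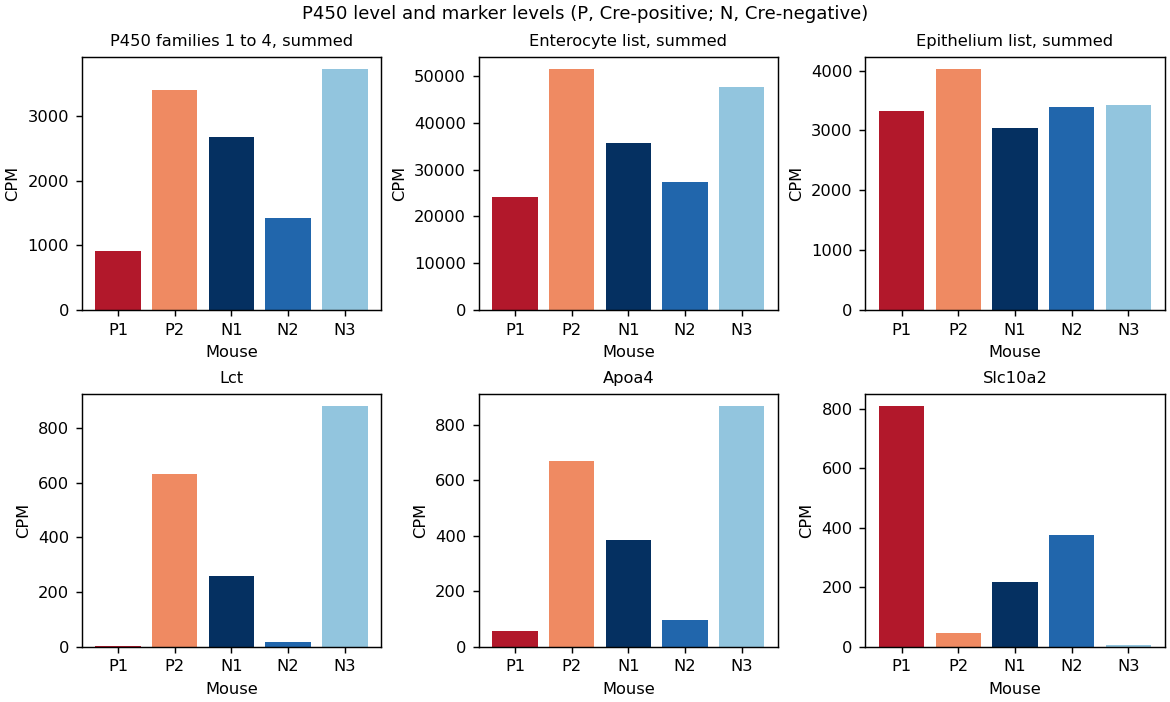
CPM in 2 Cre-positive (P1, P2) and 3 Cre-negative mice (N1 to N3) of the 31 P450 genes summed, the enterocyte and epithelium marker lists summed, and Lct, Apoa4 and Slc10a2. P450 genes, enterocyte markers, Lct and Apoa4 are lowest in P1 and second lowest in N2, the epithelium list stays between 3036 and 4023 CPM, and Slc10a2 is highest in P1.

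The receptors that induce P450 genes and the partners that serve them were described from lists taken beside the members. Of 23 receptor and partner genes tested, 0 were called by edgeR, 9 were positive and 14 negative, with a median log2 fold change of -0.13. Pxr (Nr1i2) had 44.7 and 79.1 CPM in Cre-positive mice, against 62.5, 84.9 and 92.05 CPM in Cre-negative mice. Its lowest mouse was Cre-positive mouse 1, but Cre-negative mouse 2, low in Cyp3a11, was second highest. Car (Nr1i3) had 1.35 and 7.62 CPM in Cre-positive mice, against 3.83, 2.41 and 11.9 CPM in Cre-negative mice. This was the order of the mice in Cyp2b10 and also in the summed P450 level. It rested on 7 and 49 counts in Cre-positive mice, against 16, 13 and 73 in Cre-negative mice, with fractional counts in all 5 libraries. Ahr was even, at 23.0 and 17.9 CPM in Cre-positive mice, against 17.3, 15.9 and 20.4 CPM in Cre-negative mice. Hnf4a, a nuclear receptor of enterocytes and hepatocytes, had 487 and 578 CPM in Cre-positive mice, against 400, 615 and 472 CPM in Cre-negative mice. It was highest in Cre-negative mouse 2, the second lowest mouse for most members. Its relative Hnf4g had 340 and 609 CPM in Cre-positive mice, against 475, 319 and 605 CPM in Cre-negative mice, and was lowest in the same 2 mice as most members.

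Of 16 redox partners and haem synthesis genes tested, 0 were called, 3 were positive and 13 negative, with a median of -0.13. Por, which passes electrons to all of these enzymes, had 11.6 and 32.8 CPM in Cre-positive mice, against 35.5, 16.7 and 37.0 CPM in Cre-negative mice. Its 2 low mice were again Cre-positive mouse 1 and Cre-negative mouse 2. Cytochrome b5 (Cyb5a), a second electron donor, had 69.1 and 137 CPM in Cre-positive mice, against 127, 93.6 and 176 CPM in Cre-negative mice.

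Targets of the same receptors outside the P450 genes were not called either. Among 18 tested targets of Pxr and Car, 8 were positive and 10 negative (median -0.22). Of these 18, 2 had an edgeR unadjusted p under 0.05, against 3.38% of all genes tested. Both were named for the smallest p of their list. One was the glutathione transferase Gstm1, with 15.7 and 34.4 CPM in Cre-positive mice, against 84.8, 30.6 and 71.2 CPM in Cre-negative mice (log2 fold change -1.31 ± 0.52 SE, unadjusted p = 0.039, adjusted p = 0.977). The other was the efflux pump gene Abcb1b, with 3.10 and 2.95 CPM in Cre-positive mice, against 20.1, 15.01 and 2.93 CPM in Cre-negative mice, and fractional counts in all 5 libraries. The groups overlapped in both genes. Abcc2, an export pump for conjugates, had 38.1 and 322 CPM in Cre-positive mice, against 574, 207 and 454 CPM in Cre-negative mice. The carboxylesterase Ces2e stayed between 329 and 560 CPM in all mice. Among 8 tested targets of Ahr, 2 were positive and 6 negative (median -0.33). At an edgeR unadjusted p under 0.05 there was 1, named for the smallest p of its list, against the same 3.38% of all genes. This was the retinal dehydrogenase Aldh1a3, with 2.71 and 3.26 CPM in Cre-positive mice, against 6.71, 7.60 and 4.07 CPM in Cre-negative mice. Its log2 fold change was -1.02 ± 0.43 SE (edgeR unadjusted p = 0.049, adjusted p = 0.977). Its groups did not overlap, which held in 18% of all genes tested. Among 24 tested targets of Ppara, 5 were positive and 19 negative (median -0.29). By edgeR 0 were called in each list.

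The deposited counts of some members were fractions, as counters give that divide reads fitting several genes among them, although the counting rule is not stated. Of the 155 member values, 40 (25.8%) lay farther than 0.005 from a whole number, against 21% of all values in the table. At a tolerance of 0.05 the order turned, with 14.8% of member values and 18.2% of all values not whole, and by counts the members were also slightly lower, with 37.1% of member counts in such values at 0.005, against 38.8% of all counts. At 0.005 they fell in 12 of the 31 members. The Cyp2c subfamily had 18 such values of 35 (51.4%), Cyp4f 12 of 30 (40%) and Cyp3a 6 of 25 (24%), while Cyp2b10 and the Cyp2d and Cyp2j genes had none. Cyp3a11 and Cyp3a13, the 2 most abundant Cyp3a genes, were whole in all 5 libraries.

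Fractions can be set beside the sequence that members share, read as the share of a gene's stretches of 50 bases that also occur in transcripts of another gene. This share was 60.3% for Cyp2c40 and 43.3% for Cyp2c68, both with fractions in 4 libraries, and 20.6% for Cyp2c65 and 19.5% for Cyp2c66, both with fractions in all 5. Cyp2c65 shared 20.2% with Cyp2c66, Cyp3a25 25.2% with Cyp3a59 and Cyp4f16 16.3% with Cyp4f37. How many reads any division moved cannot be read from the table. The Cyp2c66 value in Cre-positive mouse 1 was 1.02 estimated counts, and Cyp4f14, at 2.39% shared, lay within 0.05 of a whole number in its 4 fractional libraries. Cyp3a44 was an exception, with 26.5% shared and no fraction, and its closest partner, Cyp3a41a, is not analysed here. Levels of Cyp2c40, Cyp2c65, Cyp2c66, Cyp2c68, Cyp3a25, Cyp3a44, Cyp3a59, Cyp4f16 and Cyp4f37 are therefore uncertain. Reads from their shared stretches could have come from another gene. Exons of Cyp2c29 and Cyp4v3 also overlap another gene on the same strand, and those of Cyp2c55, Cyp2s1 and Cyp2u1 a gene on the opposite strand. Whether counting used strand is not stated in the labels or notes.

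**Figure D5:**
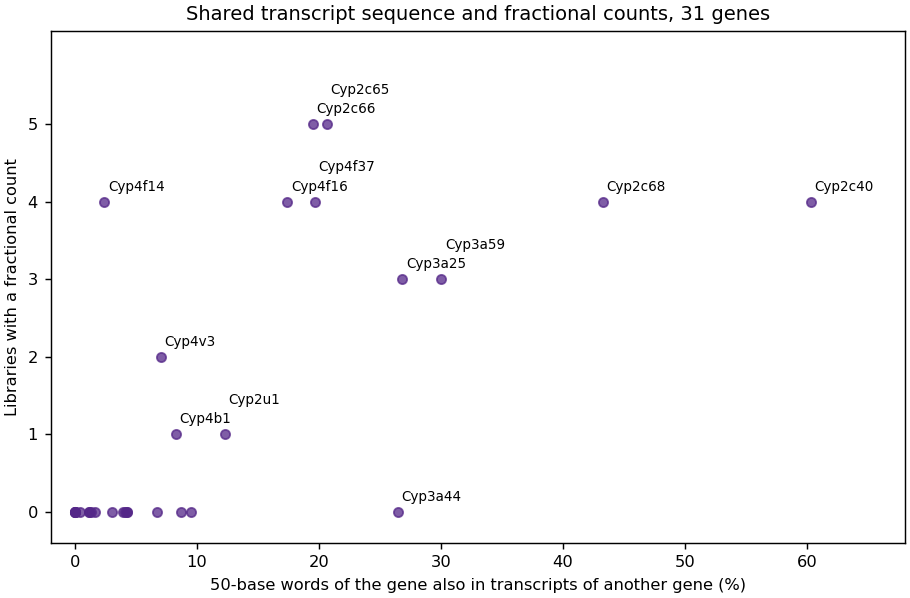
Share of each gene's 50-base stretches that also occur in transcripts of another gene (horizontal axis, percent) against the number of libraries, of 5, in which the deposited count was not whole, for the 31 P450 genes. Cyp2c65 and Cyp2c66 were fractional in all 5 libraries and Cyp2c40, at 60.3%, in 4, while Cyp3a44, at 26.5%, had none.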

How the data were processed

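The authors deposited 1 table of estimated counts (expected counts, many not whole) for 19198 genes and 5 mice. Partek and mm10 are named in the submitters' processing notes, while the aligner, annotation, strand setting and versions are stated nowhere in the labels or notes. The lowest total of a gene over all libraries was 10. Counts were rounded to whole numbers and tested with edgeR 4.0.16 in R 4.3.3 (TMM, filterByExpr with minimum count 10, robust quasi-likelihood, genotype alone), with Benjamini-Hochberg adjustment over the 14352 genes tested at 0.05. Residual degrees of freedom were 3, and the biological coefficient of variation 33.1%. The filter removed 4846 genes and can be passed through the 2 Cre-positive libraries alone. Fold changes set Cre-positive over Cre-negative mice, CPM are TMM-scaled, and ± marks the SD over mice or the SE of a fold change. Single values were compared by exact permutation over 10 splits.

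Alternatives were RLE, total-count and epithelium-marker scaling, DESeq2 1.42.0, limma-voom 3.58.1, no filter, 5 CPM in 2 libraries, unrounded counts, an adjusted p of 0.1, a wider symbol rule, a wider tolerance for whole values and leaving out each mouse. Members, lists and tests were chosen with earlier results of these data known. Per-mouse values were given for members with a mean of at least 10 CPM, and others were named to describe a subfamily, a role or, after their values were seen, the text's contrasts. In the context lists the rule took the 3 genes of highest level and the 2 with the smallest unadjusted p, of which some are reported. Nr1i2, Nr1i3, Ahr, Por and the single position markers were named after their values were seen. Positions come from GENCODE release 21 on GRCm38, which mm10 denotes, matched for 31 of 31 members by symbol.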

Additional observations from a re-analysis of the deposited data

How the results depend on the processing

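No paired analysis was possible because the labels give the groups no shared replicate numbers. No member or subfamily was called under any alternative run, and RLE, total-count and epithelium scaling, DESeq2, limma-voom, both filters and unrounded counts kept the direction of all 19 members at 10 CPM or more and all 5 multi-gene subfamilies. Epithelium scaling moved the median log2 fold change of all genes to -0.20 from -0.04. DESeq2 called 11 genes higher and 6 lower over the whole table, where edgeR called 0 and 0 (230 and 255 at an unadjusted p under 0.05). Without 1 mouse, edgeR called 0 to 58 genes higher, the 58 without Cre-positive mouse 2, the lone Cre-positive mouse then being assumed to vary like the others. With the position score, the log2 fold changes turned to 0.10 (Cyp4f14), 0.55 (Cyp4v3), 0.45 (Cyp3a25), 0.85 (Cyp2b10), 0.042 (Cyp2d26), 0.27 (Cyp2c68), 0.085 (Cyp2c66), 0.075 (summed Cyp3a) and 0.00094 (summed Cyp4f); the cause was not tested. At a tolerance of 0.05, 14.8% of member values and 18.2% of all values were not whole, against 25.8% and 21% at 0.005, so the members went from above to below the table's share. Leaving out each mouse in turn gave log2 fold changes from -1.09 to 0.24 for Cyp3a13, -5.24 to 0.56 for Cyp3a11, -1.46 to 0.49 for Cyp3a25, -5.99 to 1.58 for Cyp2b10, -3.25 to 0.24 for Cyp2c65, -6.52 to 0.57 for Cyp2c66, -3.25 to 0.54 for Cyp2c68, -2.22 to 0.39 for Cyp2c55, -3.48 to 0.82 for Cyp2d26, -1.74 to 0.21 for Cyp2d22, -0.45 to 0.28 for Cyp2j6, -2.38 to 0.083 for Cyp2u1, -0.84 to 0.48 for Cyp4f14, -0.72 to 0.093 for Cyp4f16, -0.25 to 0.13 for Cyp4f40, -0.65 to 0.20 for Cyp4f13, -2.46 to 0.83 for Cyp4v3 and -2.79 to 0.37 for Cyp4b1, with Cyp2s1 alone negative throughout (-0.41 to -0.08). The subfamily fits ran from -1.77 to 0.38 (Cyp3a), -3.17 to 0.27 (Cyp2c), -2.53 to 0.61 (Cyp2d), -0.51 to 0.24 (Cyp2j) and -0.76 to 0.35 (Cyp4f). Log2 ratios of summed CPM ran from -1.50 to 0.38 for all members, -1.80 to 0.35 (Cyp3a), -3.21 to 0.24 (Cyp2c), -2.58 to 0.56 (Cyp2d), -0.56 to 0.21 (Cyp2j) and -0.80 to 0.31 (Cyp4f). Of the 19 members, 18 changed sign without Cre-positive mouse 1, 9 without Cre-negative mouse 3, 4 without Cre-negative mouse 1 and 1 without Cre-negative mouse 2. Depth limits the 12 members under 10 CPM, several of them with counts of 0 to 9 in a library.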

Other observations

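P450 genes of other families, which make or break down sterols, bile acids, retinoic acid and thromboxane, were described beside families 1 to 4. Of 8 tested, 0 were called by edgeR, 2 were positive and 6 negative (median log2 fold change -0.06), and Cre-positive mouse 1 and Cre-negative mouse 2 were the 2 lowest in 1 of the 8 (12.5%), against 13.9% of all genes tested. Cyp51, the sterol demethylase of cholesterol synthesis, had 97.7 and 39.5 CPM in Cre-positive mice, against 43.9, 83.6 and 29.8 CPM in Cre-negative mice. The 2 mice lowest in most family 1 to 4 genes were its 2 highest. Cyp27a1, which hydroxylates sterols in mitochondria, had 2.52 and 14.1 CPM in Cre-positive mice, against 13.9, 10.2 and 15.6 CPM in Cre-negative mice, with the 2 lowest mice the same as in most family 1 to 4 genes.

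Enzymes that share arachidonic acid and retinoids with these P450s were described from a list of 22, of which 16 were tested. By edgeR 0 were called, 2 were positive and 14 negative, with a median of -0.38. Ptgs2, the inducible prostaglandin synthase, had 15.5 and 6.06 CPM in Cre-positive mice, against 56.3, 29.8 and 21.3 CPM in Cre-negative mice. The groups did not overlap, and the edgeR unadjusted p was 0.017 (log2 fold change -1.74 ± 0.56 SE) with an adjusted p of 0.977. Ptgs2 was named for the smallest p of its list. Over all genes tested, 18% had groups that did not overlap and 3.38% an edgeR unadjusted p under 0.05. Rbp2, the retinol carrier of enterocytes, had 12.0 and 92.3 CPM in Cre-positive mice, against 59.4, 29.8 and 122 CPM in Cre-negative mice, the order of the mice in Cyp2c65.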
